A study of Mus musculus with 2 samples.

Results

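The Vmn2r genes encode the type 2 vomeronasal receptors (V2Rs), and they were examined as a set of genes with closed chromatin in nuclei of mouse brain. Members were all protein-coding genes of the GENCODE M21 annotation of mm10 with a symbol starting with Vmn2r, which gave 122 of 21938 protein-coding genes. Single-cell ATAC-seq, in which the Tn5 transposase cuts open chromatin, was carried out on 1 sham and 1 stroke library from wild-type (WT) young adult C57BL/6J male mice at 48 h after surgery. In the stroke group the middle cerebral artery was blocked with a filament for 1 h and then reperfused, and sham mice had the filament inserted without lasting occlusion. Each library was a pool of 4 flash-frozen samples, whole brains in sham and ipsilateral hemispheres in stroke, without olfactory bulbs and cerebellum, so the libraries differed in the tissue taken as well as in the surgery. The animals within a pool cannot be told apart, and with 1 library per condition the libraries are compared below without a replicate and without a test.

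V2Rs are large receptors coupled to G proteins, with a long extracellular domain that binds peptide and protein pheromones. They are used by sensory neurons of the basal layer of the vomeronasal organ, a structure of the nose, where each neuron uses mainly a single V2R of the large subfamilies together with a V2R of the subfamily that holds Vmn2r1 to Vmn2r7. The genes lie in clusters of recent duplicates, and in cells that do not use them such receptor clusters are known as silent heterochromatin.

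The sequences below show what the starts of these genes look like and why part of the family is hard to measure. RefSeq (GRCm38.p6) gave 116 promoter sequences for 115 of the 122 members, each with 250 bases before and 50 bases after the start. Their median number of CG pairs was 1, against 7 over all 32851 promoters of the table, and 29.3% held none, against 5.43% of all. Median GC was 38% against 52.7%. The motif TATAAA, searched on both strands, was in 26 of the 116 (22.4%) and in 13.6% of all promoters. Capitals mark the CG pairs. Vmn2r1 (plus strand, chr3:64081392-64081691) is shown as a start from the most accessible cluster of members. Vmn2r31 (minus strand, chr7:7399578-7399877) is shown because Vmn2r33 (chr7:7566737-7567036) has the same 300 bases, 1 of 3 such identical pairs. The second start of Vmn2r29 (minus strand, chr7:7278240-7278539) is shown because its 23 CG pairs set it apart from all other members, which had at most 4. Gnao1 (plus strand, chr8:93810588-93810887), the gene of the G protein alpha subunit used by V2R neurons and by many brain neurons, is shown as an open start.
Vmn2r1: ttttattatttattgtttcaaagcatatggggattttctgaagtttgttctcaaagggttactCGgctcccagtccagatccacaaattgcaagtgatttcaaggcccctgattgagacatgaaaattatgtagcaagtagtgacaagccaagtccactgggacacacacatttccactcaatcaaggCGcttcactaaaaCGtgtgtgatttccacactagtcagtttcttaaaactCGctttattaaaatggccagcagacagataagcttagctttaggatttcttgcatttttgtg
Vmn2r31: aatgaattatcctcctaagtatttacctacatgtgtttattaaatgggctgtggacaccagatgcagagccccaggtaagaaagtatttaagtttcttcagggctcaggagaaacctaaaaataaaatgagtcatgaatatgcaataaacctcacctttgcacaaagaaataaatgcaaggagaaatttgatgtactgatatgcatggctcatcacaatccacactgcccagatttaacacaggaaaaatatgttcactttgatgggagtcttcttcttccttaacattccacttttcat
Vmn2r29, second start: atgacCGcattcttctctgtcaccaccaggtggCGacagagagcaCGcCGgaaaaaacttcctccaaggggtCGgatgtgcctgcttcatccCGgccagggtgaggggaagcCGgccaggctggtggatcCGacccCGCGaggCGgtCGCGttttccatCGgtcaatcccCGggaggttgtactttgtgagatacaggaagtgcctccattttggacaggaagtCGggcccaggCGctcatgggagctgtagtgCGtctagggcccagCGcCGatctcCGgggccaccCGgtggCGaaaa
Gnao1: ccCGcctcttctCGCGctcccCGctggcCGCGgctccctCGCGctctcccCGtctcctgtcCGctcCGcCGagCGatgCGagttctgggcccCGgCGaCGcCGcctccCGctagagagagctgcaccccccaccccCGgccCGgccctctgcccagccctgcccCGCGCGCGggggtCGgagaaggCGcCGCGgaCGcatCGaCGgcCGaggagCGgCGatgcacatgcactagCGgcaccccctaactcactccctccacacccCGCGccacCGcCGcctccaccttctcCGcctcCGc

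The promoter windows carried few fragments. In barcodes with over 0.20 of their fragments in peaks, the 115 promoters with at most 4 CG pairs held 91 fragments in all in sham and 175 in stroke, and at most 6 and 12 in any 1 of them. The second start of Vmn2r29 alone held 822 and 517, and Gnao1 held 465 and 290. That start coincides with the annotated start of Gm45844 and lies 31.0 kb upstream of the start that GENCODE gives Vmn2r29, outside the window counted for this gene here. At its other RefSeq start, Vmn2r29 held 0 fragments in each library, and its counted window held 24 fragments in sham and 11 in stroke, a ratio of stroke to sham of 0.638 (95% interval 0.282 to 1.35). The Vmn2r29 start was singled out after its values were seen.

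Accessibility was counted as fragments overlapping the gene body and 2 kb upstream, per kb and per 1000000 fragments of the same barcodes, and is given relative to the genome mean, so that a level of 1 is the mean over all sequenced bases of the genome (0.378 fragments per kb per 1000000 fragments). Cell Ranger ATAC had called 6979 barcodes as cells in sham and 8740 in stroke, with 74782731 and 88152168 fragments on the chromosomes used. They were divided by the share of fragments in peaks, a measure of how sharply open chromatin stands out. This share was below 0.12 in 89 sham and 2833 stroke barcodes, 0.12 to 0.20 in 73 and 853, and above 0.20 in 6817 and 5054. The authors had called peaks in each library, so the share is not defined by the same peaks in sham and stroke. The libraries shared 66 called barcode sequences. Intervals are exact 95% intervals and cover counting error only.

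Vmn2r genes were closed in the nuclei with a high peak share. Above 0.20, the summed level of the family was 0.0702 (95% interval 0.0687 to 0.0718, 7694 fragments) in sham and 0.132 (0.129 to 0.134, 10358 fragments) in stroke. All 122 members were under 0.5 of the genome mean in each library, where 23.4% of all protein-coding genes were in sham and 20.8% in stroke. The median member was at 0.0560 in sham and 0.117 in stroke, and the median protein-coding gene at 1.78 and 1.76. A nucleus held 1.13 Vmn2r fragments on average in sham and 2.05 in stroke, and 52.6% and 38.3% of nuclei held none. Of the 122 members, 0 reached the genome mean in either library, where 65.2% of all genes did in sham and 66.7% in stroke. The highest member in sham, Vmn2r7 at 0.251, was above only 16.4% of all genes.

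The same genes were much less closed in barcodes with a low peak share. Below 0.12 the level was 0.641 (0.594 to 0.690, 701 fragments) in sham and 0.577 (0.569 to 0.584, 23741 fragments) in stroke, and between 0.12 and 0.20 it was 0.349 (0.311 to 0.390) and 0.440 (0.428 to 0.452). The level below 0.12 was thus 9.12 times (8.43 to 9.86) that above 0.20 in sham and 4.38 times (4.28 to 4.49) in stroke. Barcodes with few fragments in peaks have more outside them by definition. Per 1000000 fragments outside peaks the ratios were 6.02 (5.57 to 6.51) and 3.12 (3.05 to 3.20). In stroke, 118 of the 122 members were at least 1.5-fold higher below 0.12 than above 0.20, against 23.0% of all genes. Below 0.12 in stroke, 44 of 122 were under 0.5 of the genome mean, against 6.18% of all genes. Most of the 44 had under 80% unique sequence, as defined below. For the 59 members with at least 80%, the lower quartile in this group was 0.575 and the lowest level 0.388. Members at or above the genome mean below 0.12 numbered 24 of 122 in sham, against 61.3% of all genes, and 11 of 122 in stroke, against 68.6%. In stroke these were Vmn2r1, Vmn2r2, Vmn2r3, Vmn2r4, Vmn2r7, Vmn2r19, Vmn2r23, Vmn2r24, Vmn2r25, Vmn2r86 and Vmn2r88. The share of read pairs that mapped with low quality moved in the same way, from 4.88% above 0.20 to 16.2% below 0.12 in sham and from 5.81% to 13.7% in stroke. Its part in the result was not tested.

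**Figure D1:**
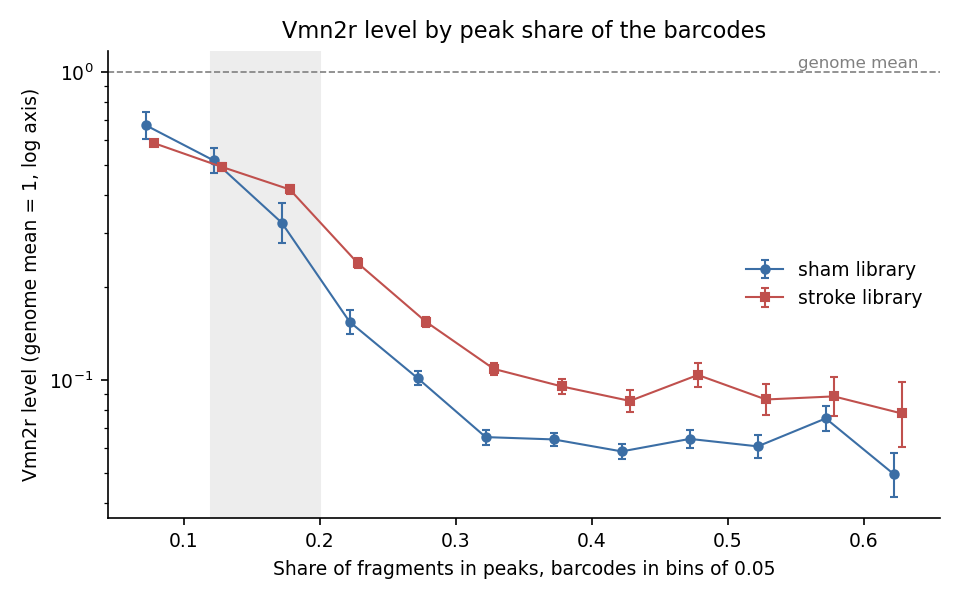
Vmn2r level (vertical log axis, genome mean = 1) in called barcodes grouped by their share of fragments in peaks (horizontal axis, bins of 0.05; points are sums over the barcodes of a bin, bars exact 95% Poisson intervals, grey band 0.12 to 0.20). The level falls with the peak share in each library up to about 0.35, and from 0.20 up the stroke points lie above the sham points.

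The other silent receptor families were also higher below 0.12, with smaller ratios. Counted by fragment midpoints, Vmn1r genes, which encode the type 1 vomeronasal receptors, were at 0.144 (0.140 to 0.147) in sham and 0.220 (0.215 to 0.224) in stroke above 0.20, and Olfr genes, the odorant receptors, at 0.187 (0.185 to 0.188) and 0.260 (0.258 to 0.262). On the same count Vmn2r genes were at 0.0700 (0.0685 to 0.0716) and 0.131 (0.129 to 0.134), below both families. Among genes with at least 80% unique sequence, as defined below, the order was the same, with 0.0765 for 59 Vmn2r, 0.178 for 119 Vmn1r and 0.190 for 1027 Olfr genes in sham. By medians per gene over all members of each family, the gap to Vmn1r genes was smaller. The median by midpoints was 0.0559 in sham and 0.116 in stroke for Vmn2r, 0.0737 and 0.142 for Vmn1r, and 0.1125 and 0.202 for Olfr genes. The ratio of low over high peak share was 5.04 for Vmn1r and 4.18 for Olfr genes in sham, and in stroke 3.49 (3.40 to 3.58) for Vmn1r and 3.19 (3.15 to 3.22) for Olfr genes. Rpl and Rps genes, the open genes of ribosomal proteins, went the other way with a ratio of 0.192 (0.188 to 0.196).

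Above 0.20 the family was 1.87 times (1.82 to 1.93) as accessible in the stroke library as in the sham library, and 1.70 times (1.65 to 1.75) per 1000000 fragments outside peaks. The other silent receptor families were also higher in stroke, with ratios of 1.53 (1.49 to 1.58) for Vmn1r and 1.39 (1.375 to 1.41) for Olfr genes. For Rpl and Rps genes the ratio was 0.919 (0.911 to 0.927). Of 93 members with at least 20 fragments in each library, 78 were at least 1.5-fold higher in stroke, against 8.92% of all genes, and 0 were at least 1.5-fold lower, against 0.293%. The members' median ratio was 1.98 and their range 1.14 to 3.10, while the median over all 20126 genes with enough fragments was 0.974. The largest ratios were those of Vmn2r58 (3.10, 40 fragments in sham and 89 in stroke), Vmn2r82 (3.08, 56 and 124), Vmn2r81 (3.05, 73 and 160) and Vmn2r98 (3.01, 37 and 80). The smallest was that of Vmn2r85 (1.14, 87 and 71). Without single nuclei that held at least 8 fragments of the member, the ratios of Vmn2r58, Vmn2r82 and Vmn2r98 were lower and that of Vmn2r85 higher, as given below. In barcodes below 0.12 the Vmn2r ratio of stroke to sham was instead 0.900 (0.835 to 0.971). It rests on 89 sham barcodes, of which 1 held 47 of the 701 Vmn2r fragments, and the interval takes fragments as independent. There the ratio was 1.06 (0.960 to 1.17) for Vmn1r and 1.06 (1.02 to 1.11) for Olfr genes.

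The stroke library had a lower peak share also within the group above 0.20, with 34.3% of fragments in peaks against 40.4% in sham. Within bins of 0.05 of the peak share from 0.20 to 0.65, the ratio of stroke to sham was between 1.18 and 1.66. Among these bins, only the interval of the bin from 0.55 to 0.60 (0.988 to 1.40) included 1. Nuclei above 0.65 were not divided into bins. In the bin from 0.15 to 0.20 it was 1.28 (1.098 to 1.503). The interval of the bin from 0.10 to 0.15 (0.865 to 1.05) included 1, and in the bin from 0.05 to 0.10, with 51 sham barcodes, the ratio was 0.875 (0.791 to 0.970). Fragments of barcodes that were not called as cells were at a Vmn2r level of 0.122 (0.110 to 0.135) in sham and 0.582 (0.569 to 0.596) in stroke. The part of such fragments in the difference between the libraries was not tested. With 1 pool per condition, surgery, tissue taken and library cannot be told apart.

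The 122 members lay in 18 clusters, split where neighbours were 1 Mb or more apart, on chromosomes 3, 4, 5, 6, 7, 10, 14, 17 and X, and filled 3948 kb, or 0.149% of the genome. The cluster on chromosome 3 with Vmn2r1 to Vmn2r7, the subfamily whose members are co-expressed with other V2Rs, had the highest summed level. Its level was 0.194 in sham and 0.302 in stroke above 0.20 and 1.09 in stroke below 0.12. The cluster on chromosome 7 from Vmn2r29 to Vmn2r52, with 24 members, had the lowest level per kb, at 0.0132, 0.0241 and 0.104 in the same groups. Per unique sequence, of which this cluster held 18.7%, it was at 0.0608, 0.111 and 0.479, and was then no longer the lowest in any of them. The lone Vmn2r28 was below it in all 3, at 0.0498, 0.0911 and 0.432. The clusters with Vmn2r84 to Vmn2r87 on chromosome 10 and with Vmn2r120 on chromosome 17 came next after the first, at 0.139 and 0.143 in sham and at 0.214 and 0.243 in stroke above 0.20. The 22 members from Vmn2r90 to Vmn2r110 on chromosome 17 were at 0.0532, 0.1198 and 0.575. All 18 clusters were higher in stroke than in sham above 0.20, by 1.40 times (1.06 to 1.86) for the lone Vmn2r118 to 2.61 times (2.24 to 3.03) for Vmn2r80 to Vmn2r83. For the lone Vmn2r28 (0.969 to 3.52) and Vmn2r121 (0.754 to 3.28) the interval included 1. The single member on the X chromosome, Vmn2r121 (124124961 to 124135952), was at 0.0444 with 16 fragments in sham and at 0.0695 with 18 in stroke. In these male mice the X chromosome as a whole was at 0.277 in sham and 0.304 in stroke above 0.20.

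**Figure D2:**
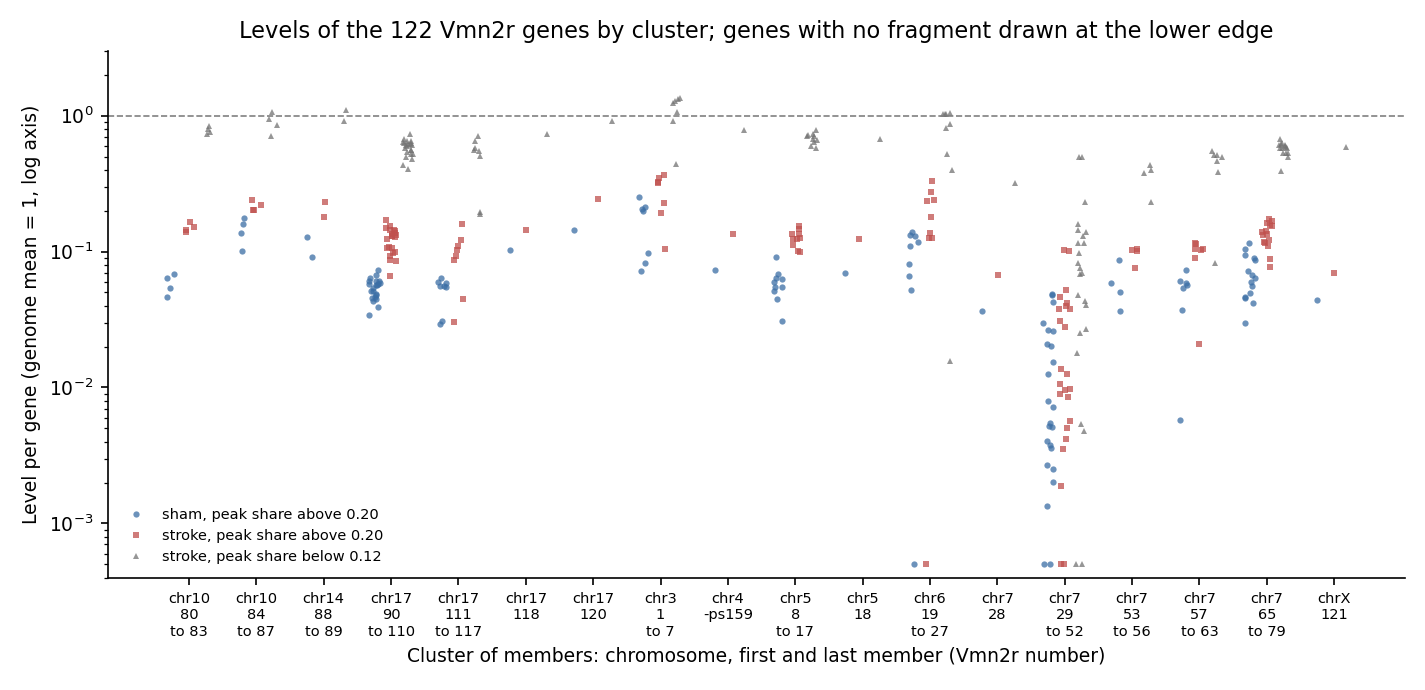
Level of each of the 122 Vmn2r genes (vertical log axis, genome mean = 1) by cluster (horizontal axis), in sham and stroke barcodes with a peak share above 0.20 and in stroke barcodes below 0.12; genes with no fragment are drawn at the lower edge. The cluster with Vmn2r1 to Vmn2r7 is highest above 0.20, and the cluster from Vmn2r29 to Vmn2r52 spreads down to 0 fragments.

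Within the chromosome 3 cluster the levels were uneven. Vmn2r7 (chromosome 3, 64685044 to 64844765), the longest member with a window of 161.7 kb, was at 0.251 in sham and 0.349 in stroke above 0.20. It alone held 1128 of the 1878 fragments of the cluster in sham and 1126 of the 2097 in stroke, so the summed level rests largely on this gene. Vmn2r1 was at 0.212 and 0.367, Vmn2r2 at 0.205 and 0.326, and Vmn2r3 at 0.198 and 0.320. These 4 were the highest of all members over both libraries. Vmn2r4 was at 0.0977 and 0.230, Vmn2r6 at 0.0819 and 0.194, and Vmn2r5 at 0.0714 and 0.104. Per unique sequence Vmn2r5, of which 30.9% was unique, was at 0.198 and 0.287, within the range of its neighbours. Stroke exceeded sham in each of the 7, by 1.39 times in Vmn2r7 to 2.36 times in Vmn2r6, and for Vmn2r5 the interval of the ratio (0.949 to 2.22) included 1.

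Many members share sequence with other places in the genome, where the aligner cannot place a read. Of the words of 50 bases in a window, the share found once in the genome had a median of 79.5% over the members and 97.0% over all genes. All overlapping words were taken for Vmn2r, Vmn1r and Olfr genes, and words sampled at even steps along the window for other genes. The share was at least 80% for 59 members and under 20% for 16. The 16 were nearly without fragments, with a level of 0.00323 in sham and 0.00668 in stroke above 0.20 and 0.0355 in stroke below 0.12. The 59 were at 0.0768, 0.155 and 0.698. Vmn2r46 (chromosome 7, 9747811 to 9770571) and Vmn2r47 (chromosome 7, 9816782 to 9841325) held no unique word and no fragment in any group, and Vmn2r21 (chromosome 6, 123492508 to 123533406) had 0.846% unique words and 0 fragments above 0.20 in each library. A count of 3 fragments would be a level of 0.00437 in sham for Vmn2r46, if its reads could be placed at all. Vmn2r41, the fourth lowest, had 2 fragments in sham and 1 in stroke and shared 91.3% of its words with Vmn2r40. Vmn2r35 had 2.56% unique words, with 2 and 3 fragments. For these members a low level cannot be told apart from reads that could not be placed.

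Over the 122 members, Spearman's rho between unique share and level was 0.502 in sham and 0.583 in stroke above 0.20 and 0.610 in stroke below 0.12. Among the 59 members with at least 80% unique words, rho between GC content and level was 0.572, 0.471 and 0.447, and rho between the levels in sham and stroke above 0.20 was 0.750. These points share libraries and, within a cluster, sequence. The highest of these 59 above 0.20, Vmn2r1, was at 0.212 in sham and 0.367 in stroke. Below 0.12, 16 of the 59 in sham and 7 in stroke were at or above the genome mean, where 61.3% and 68.6% of all genes were.

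**Figure D3:**
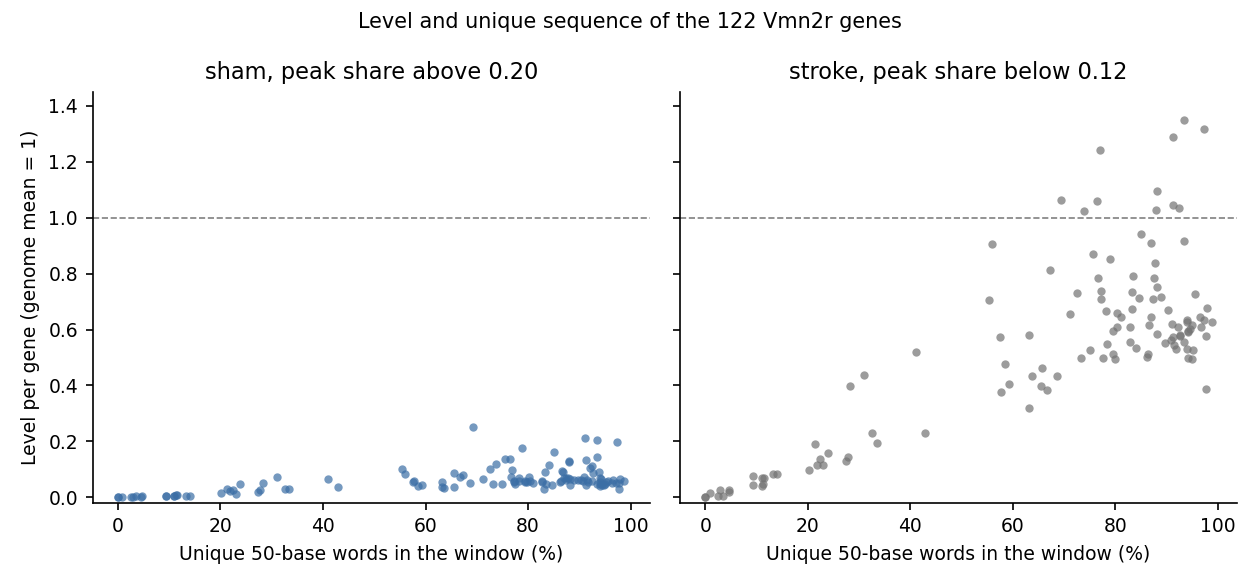
Level of each of the 122 Vmn2r genes (vertical axis, genome mean = 1) against the share of unique 50-base words in its window (horizontal axis, %), in sham barcodes above 0.20 and in stroke barcodes below 0.12. Members under 20% lie near 0 in each panel, and those with at least 80% reach 0.212 in sham and 1.35 in stroke below 0.12.

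The starts of Vmn2r genes stood out far less than those of other genes. Cuts within 100 bp of the start, over those 1500 to 2000 bp away, were 1.18 times (0.937 to 1.47) as dense in sham above 0.20 and 1.41 times (1.18 to 1.67) in stroke. Both ends of a fragment were counted as cuts, so these intervals, which take cuts as independent, are too narrow. Over all protein-coding genes the same ratio was 17.1 and 15.5, and over Rpl and Rps genes 22.7 and 21.3. The level of cuts within 100 bp was 0.0739 in sham and 0.175 in stroke, against 0.0702 and 0.132 for the whole windows. In bins of 50 bp the highest level lay upstream of this stretch, at -425 bp in sham (0.115, 39 cuts) and at -175 bp in stroke (0.251, 61 cuts). Fragments in Vmn2r windows were also longer, with 62.9% (61.8% to 63.99%) shorter than the DNA of 1 nucleosome in sham and 57.7% (56.7% to 58.6%) in stroke, against 70.4% and 69.8% over the genome. The other receptor families shared this, with 62.9% and 60.7% for Vmn1r and 64.3% and 60.7% for Olfr genes. In stroke barcodes below 0.12 the values were 60.3% and 64.8%.

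**Figure D4:**
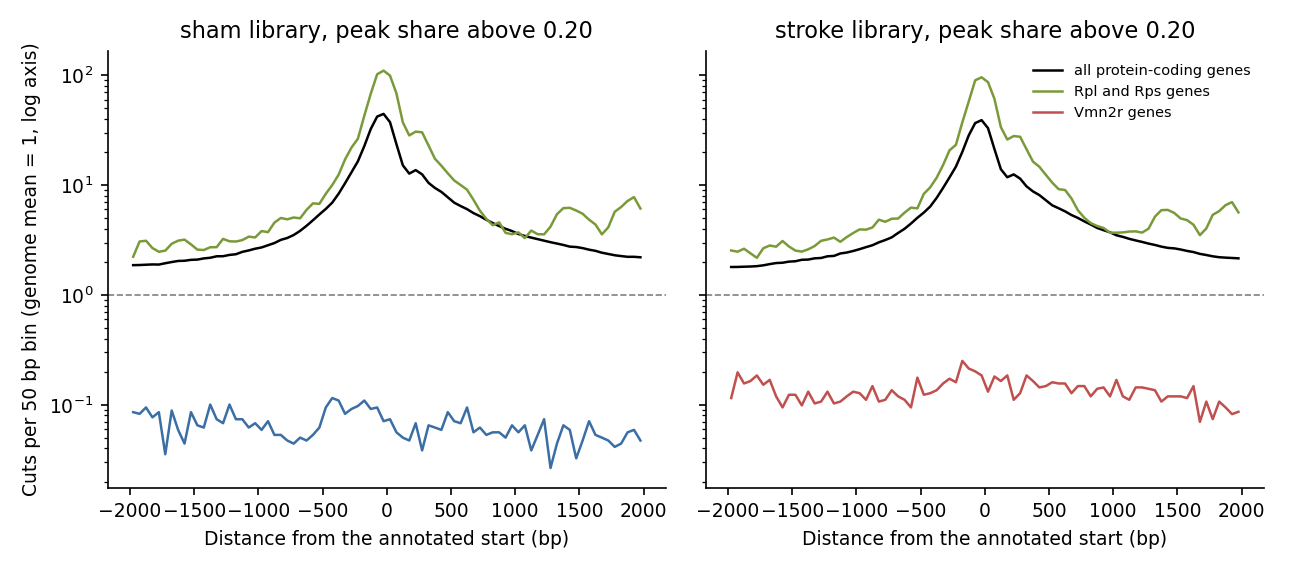
Cuts in bins of 50 bp (vertical log axis, genome mean = 1) by distance from the annotated start (horizontal axis, bp) in barcodes above 0.20 of the sham and the stroke library, for Vmn2r genes, Rpl and Rps genes and all protein-coding genes. Vmn2r genes show no peak like those of the other sets and stay below 1 over the whole range.

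Some fragments of the members were concentrated in single bins of 500 bp. For each member and library the bin with most fragment midpoints over all called barcodes was taken, and its fragments were counted in barcodes above 0.20, where it need not be the densest. In Vmn2r7 the bin of the sham library held 148 of these fragments, a level of 10.7, and that of the stroke library, elsewhere in the gene, held 92, a level of 9.23. In Vmn2r26 the same bin was taken in both libraries, with 35 fragments in sham and 34 in stroke, or 21.1% and 16.8% of those of the gene. Vmn2r65 and Vmn2r120 also had their bin in the same place in both, with 19 and 21 fragments and with 25 and 26. These genes were named for this after their values were seen.

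Of the ligands of vomeronasal neurons, the Esp genes, which encode exocrine gland-secreting peptides, were at levels near those of the receptors, 0.0636 (0.0546 to 0.0736) in sham and 0.142 (0.126 to 0.159) in stroke above 0.20 by midpoints, and 15 of 15 were under 0.5 of the genome mean in each. The Mup genes, for major urinary proteins, had a median of 15% unique words. The median Mup gene was at 0.0366 in sham and 0.0634 in stroke. The summed level of the 22 was 0.126 and 0.127 and included Mup5, of which 94.0% was unique and which, counted by overlapping fragments, held 365 in sham and 162 in stroke, a level of 2.22 and 1.37. The H2-M genes encode class Ib molecules found with V2Rs at the surface of vomeronasal neurons, and 8 of 9 were under 0.5 in each library. The exception was H2-M10.2, at 1.34 and 1.14.

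Of the 6 signalling genes listed for V2R neurons, most of which other cells also use, 3 were above the median protein-coding gene (1.78 in sham and 1.76 in stroke) in each library and 0 were under 0.5 of the genome mean. Gnao1 was at 4.51 in sham and 4.19 in stroke, Gng8, a G protein gamma subunit, at 7.27 and 7.11, and Plcb2, a phospholipase, at 3.9 and 3.35. Trpc2, the cation channel of vomeronasal transduction, was at 1.39 and 1.48, and the calcium-activated chloride channels Ano1 and Ano2 were below the genome mean, at 0.694 and 0.515 in sham and 0.827 and 0.610 in stroke. Of the 4 transcription factors listed for vomeronasal neurons, of which Meis2 is known from the apical neurons that use type 1 receptors, Tfap2e lay below the median gene and the others above it in each library, with Bcl11b at 3.76 and 3.25, Meis2 at 1.82 and 1.88, Tfap2e at 1.27 and 1.23, and Atf5 at 15.4 and 12.97.

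Among nuclei above 0.20, cell classes were set by marker genes. A nucleus was assigned where it held at least 3 fragments over the markers of a class, at least 2 times those expected from its depth, and at least 1.5 times the excess of the next class. This left 70.5% of nuclei without a class, and only for nuclei gated on astrocyte and on GABAergic neuron markers were markers kept out of the gate over 1.5-fold higher in each library (3.28 and 3.16 for astrocyte, 1.95 and 1.68 for GABAergic). None of the markers of these 2 classes was among the 10 leading genes of its nuclei by fold. In the other 5 classes the same ratio was 1.06 to 1.40 in sham and 1.19 to 3.21 in stroke. Of the nuclei, 301 and 662 nuclei lay near the bound of these 2 gates. Vmn2r genes were at 0.140 (0.132 to 0.148) in 561 astrocyte-gated nuclei and at 0.0785 (0.0740 to 0.0832) in 849 GABAergic-gated nuclei. In sham the levels were 0.106 and 0.0672, and in stroke 0.161 and 0.0995. Astrocyte-gated nuclei had the higher share of fragments in peaks, 44.2% against 35.6%, and their level per 1000000 fragments outside peaks was 0.251 against 0.122. Across all 7 gated classes the level ran from 0.0692 to 0.140, and the ratio of highest to lowest, astrocyte over glutamatergic neuron, was 2.02 (1.85 to 2.22). The libraries contributed unequally to the classes, with 338 of 561 astrocyte-gated but 202 of 590 glutamatergic-gated nuclei from stroke. Within sham the ratio was 1.78 (1.503 to 2.103), with oligodendrocyte precursors lowest, and within stroke 1.92 (1.68 to 2.19), with glutamatergic neurons lowest. With a stricter gate it was 2.01 (1.67 to 2.43), with GABAergic neurons lowest. Stroke over sham was 1.52 (1.34 to 1.71) in astrocyte-gated and 1.48 (1.32 to 1.67) in GABAergic-gated nuclei. Across the 7 gated classes it ran from 1.37 (1.18 to 1.59) for glutamatergic neurons to 2.22 (1.88 to 2.63) for oligodendrocyte precursors. Every gated class stayed far below the genome mean.

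Fragments of a member were at times concentrated in a single nucleus. This was noticed after the values had been seen, and is given as a description. Above 0.20, 22 of 6817 sham nuclei (0.323%, 0.202% to 0.488%) and 14 of 5054 stroke nuclei (0.277%, 0.151% to 0.464%) held at least 8 fragments of 1 member, in 40 combinations of a nucleus and a member. Of these, 11 were of the long Vmn2r7 and 29 of 26 other members. For the 29, the level of that member in the other nuclei of the library gave between 0.00587 and 0.0685 fragments at that nucleus' depth. A sham nucleus with 11314 fragments held 21 of the 111 Vmn2r78 fragments of its library, where 0.0139 were expected from the other nuclei, and 1 fragment in all other members together. A stroke nucleus with 15200 fragments held 21 of the 139 Vmn2r103 fragments. A sham nucleus held 16 of the 62 Vmn2r95 fragments, and a stroke nucleus 16 of the 89 Vmn2r58 fragments.

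The fragments of each combination were described as a run. A run held all fragments of that nucleus in the gene window, whatever the gaps between them. It was extended past each end of the window while gaps stayed under 10 kb. Combinations were chosen for at least 8 fragments in 1 window, so close spacing follows in part from that choice. The runs of the 29 combinations spanned 5.55 to 103 kb (median 28.5 kb), and 11 of the 29 ran past an end of the gene window. The run over Vmn2r78 covered 33.4 kb with 22 fragments, that over Vmn2r95 covered 39.6 kb with 28, of which 12 lay outside the window, and that over Vmn2r103 covered 53.9 kb with 27. The nuclei had 4834 to 20464 fragments (median over the 29 combinations 15200, against 10356 in all sham and 9898 in all stroke nuclei above 0.20) and peak shares of 0.236 to 0.642. A sham nucleus with 15037 fragments held 14 fragments of Vmn2r25 and 12 of Vmn2r27, and its 37 Vmn2r fragments all lay in the chromosome 6 cluster. The sham nucleus with the most, 90 Vmn2r fragments of 16853, had them in 28 members of 5 clusters, a level of 3.58.

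**Figure D5:**
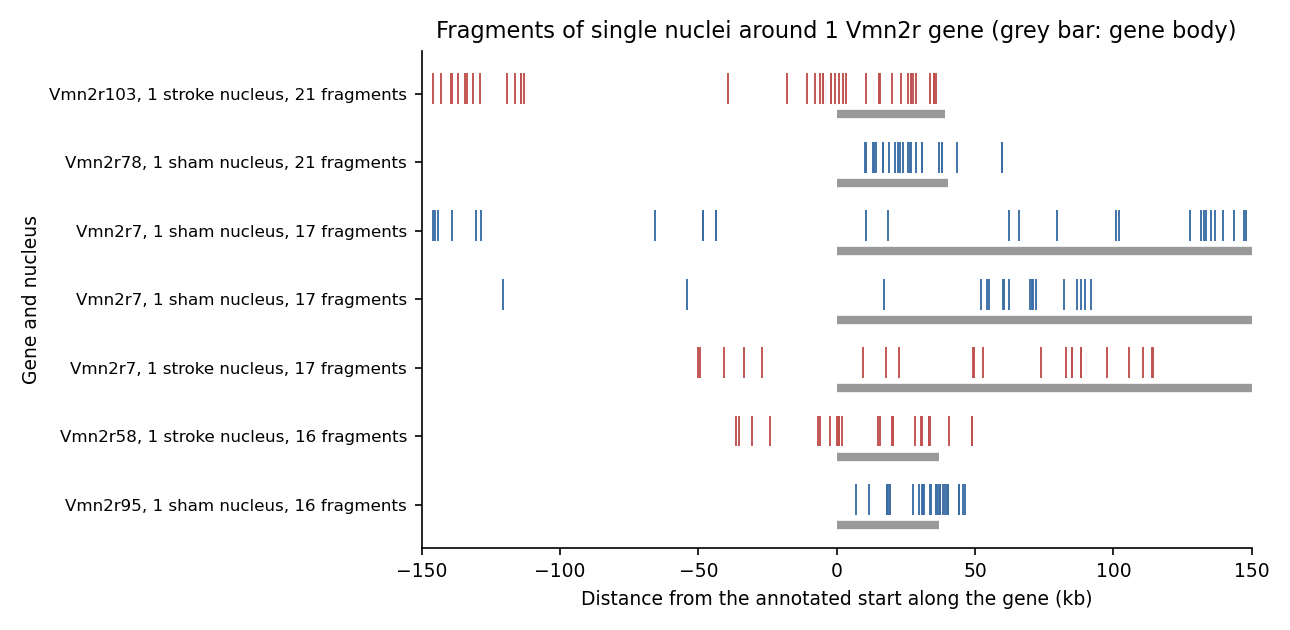
Fragments (vertical ticks; blue sham, red stroke) of the single nuclei with at least 16 fragments of 1 member, by distance from the annotated start along the gene (horizontal axis, kb); the grey bar is the gene body. Ticks crowd over Vmn2r78 and Vmn2r95 in 1 sham nucleus each, those over Vmn2r103 and Vmn2r58 also lie before the start, and the 17 over the long Vmn2r7 in each of 3 nuclei are more widely spaced.

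Such concentration was not particular to Vmn2r genes by count. Among genes with 50 to 500 fragments and a level under 0.3, 15 of 57 members in sham and 9 of 76 in stroke had a nucleus with at least 8 fragments, against 28.0% and 12.9% of all such genes. A nucleus that held over 10% of the fragments of the gene was found for 15 of 57 members in sham and 4 of 76 in stroke, against 7.76% and 2.28% of all such genes. Members had medians of 80 fragments in sham and 91.5 in stroke, against 102 and 94 for all such genes, and longer windows (41.1 and 36.2 kb, against 24.3 and 25.8 kb). The combinations made up 3.95% of the Vmn2r fragments of sham and 1.51% of those of stroke above 0.20. Without them the family's level was 0.0675 and 0.130, but single members moved more. The ratio of stroke to sham went from 3.10 to 2.54 in Vmn2r58, from 1.48 to 2.00 in Vmn2r95 and from 1.62 to 2.00 in Vmn2r78. The 6.67-fold (4.35 to 10.0) higher level of Vmn2r58 in astrocyte-gated than in other nuclei, the largest among 39 combinations of a class and a member with at least 20 fragments, rested on 33 fragments, 16 of them from 1 nucleus, and was 3.44-fold without that nucleus. That of Vmn2r95 in GABAergic-gated nuclei went from 3.16-fold to 1.29-fold. Doublets were not removed, and their part in these nuclei was not tested.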

How the data were processed

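The members, gene lists and marker lists were chosen with earlier results of these data known. The authors aligned the reads with Cell Ranger ATAC 2.1.0 to mm10 and deposited lists of fragments and, per barcode, counts of read pairs, fragments and fragments in peaks, without normalization. Sequencing of the pools gave 76959104 fragments in sham and 96465679 in stroke in the deposited lists, and precision is that of the counts printed. Fragments were summed over gene body and 2 kb upstream in groups of called barcodes, with Python 3.11.15, numpy 2.4.6, scipy 1.17.1, pandas 2.3.3 and numba 0.67.0. Gene models came from GENCODE M21 on mm10, the build of the fragments. Unique words of 50 bases were counted on both strands of GRCm38.p6. Exact Poisson intervals were used for sums, exact conditional binomial intervals for ratios and Clopper-Pearson intervals for shares. Counting and calling were tested on simulated data. Genes are named in the text if they are Vmn2r1 to Vmn2r7, the 4 highest or lowest members, at or above the genome mean, on the X chromosome, among the 4 with least unique sequence, extremes of those 1.5-fold apart between the libraries, or on a pathway list. Others are said to be chosen later. Doublets were kept. Alternatives were midpoints, gene bodies alone, unique length, other bounds, another scaling, a filter of over 1000 fragments in peaks and leaving out overlapping members, densest bins or, added later, members with shared sequence and the fragments of a member in nuclei that held 8 or more of them.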

Additional observations from a re-analysis of the deposited data

Results flagged for a closer look

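Barcodes that were not called as cells, which lie outside the groups by peak share, carried Vmn2r fragments at a level of 0.582 (95% interval 0.569 to 0.596, 7182 of 8267972 fragments) in the stroke library, above the 0.122 (0.110 to 0.135, 391 of 2145799 fragments) of the sham control. In these barcodes 12.3% of fragments were in peaks in stroke and 39.7% in sham. The difference between the libraries was not tested.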

How the results depend on the processing

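No paired analysis was possible because sham and stroke are 1 library each and no result comes from a test. No replicate could be left out for the same reason. Of 73 alternative values, 49 stayed within the counting interval of the value in the report, or within 1.5 times a count, 24 moved, and none reversed. With length counted as unique words the level above 0.20 was 0.0872 in sham and 0.163 in stroke. Per 1000000 fragments outside peaks it was 0.118 and 0.200, the ratio of low to high peak share 6.02 and 3.12, and the ratio of stroke to sham 1.70. Without the 500 bp bin of each member with most fragments over all called barcodes of the library, the levels were 0.0644 and 0.125 and the ratio of stroke to sham 1.95. With bounds of 0.10 and 0.25 the levels were 0.0678 and 0.114, the ratios of low to high 9.91 and 5.17, and that of stroke to sham 1.68. With the 59 members of at least 80% unique words, added after the data had been seen, the levels were 0.0768 and 0.155, the ratios 10.08, 4.51 and 2.01, and 59 of 59 members stayed under 0.5 of the genome mean in each library. Without the fragments of a member in nuclei with 8 or more of them, added likewise, the sham level was 0.0675. In sham alone the ratio of the highest to the lowest gated class was 1.78, with oligodendrocyte precursors lowest. Of all members, 16 had under 20% unique words of 50 bases and could not be measured well. Words with few mismatches elsewhere were counted as unique, so the aligner may place fewer reads than the words allow. It may also place more, because the reads were paired and the words were single. Sham barcodes below 0.12 were only 89, with 701 Vmn2r fragments, which limits single genes there.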

Other observations

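Other gene families that are closed in brain followed the same order above 0.20, by fragment midpoints. The 35 Tas2r genes, which encode bitter taste receptors, were at 0.186 (95% interval 0.171 to 0.203) in sham and 0.296 (0.273 to 0.320) in stroke, and at 1.21 (1.14 to 1.27) in stroke barcodes below 0.12. The 42 Defb genes, for beta-defensins, were at 0.342 (0.329 to 0.355) and 0.436 (0.419 to 0.454), and at 0.818 (0.786 to 0.851) below 0.12. Counted by overlapping fragments, 3 of the 5 markers listed for olfactory sensory neurons were above the median protein-coding gene (1.78 in sham and 1.76 in stroke), namely Omp, the olfactory marker protein, at 4.30 and 3.92, Adcy3 at 2.58 and 2.23 and Gnal at 2.52 and 2.12. Stoml3 was at 0.851 and 0.829, and Cnga2, a channel subunit of odour transduction, was at 0.272 in sham and 0.360 in stroke. Overlap of these marker windows with other genes was not examined, so their fragments may belong to an overlapping gene.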
